A study of Mus musculus with 4 samples.

Results

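AP-1 and EGR immediate early factors were described in 2 immune cell populations of the mouse wound bed. The set holds 10 genes chosen by symbol: Fos, Fosb, Fosl1, Fosl2, Jun, Junb, Jund, Atf3, Egr1 and Egr2, of 24358 symbols in the transcript table. Each of the 10 had 1 transcript there, and each was tested by the authors. The populations were CD301b macrophages, sorted for the lectin CD301b, and immune cells negative for the macrophage surface protein F4/80. Both came from the dermis of wound beds on day 5 in male C57/Bl6 mice, 7 weeks old, with 2 libraries per population. No transgene or drug is named, and it is not stated whether libraries came from separate animals or from pools. Each population has 1 FPKM value per transcript (fragments scaled to transcript length and to the mapped fragments of the library), so no spread between libraries can be given. Where a p is given, it is the authors' Cuffdiff p, and how the libraries entered it is not stated.

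AP-1 is a dimer of basic leucine zipper proteins. JUN proteins can pair with each other or with FOS proteins, whereas FOS proteins need a partner such as JUN, and ATF3 joins JUN proteins or itself. EGR proteins bind GC-rich DNA through zinc fingers. Most of these genes belong to the immediate early class: kinases of the MAP kinase cascades switch them on soon after growth factors, cytokines or stress, without new protein synthesis, and the messages are short-lived. In macrophages EGR1 and EGR2 are known from monocyte differentiation, and AP-1 from responses to microbial products and from wound repair.

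The regions around the gene starts are shown for 4 members: Fos and Jun, which were called higher in CD301b macrophages, and Junb and Egr2, which were not past the threshold. The sequences are from RefSeq (GRCm38.p6) and run 5′ to 3′ on the strand of the gene, from 250 bases before the annotated start to 50 after it. Capitals mark matches to the motifs named after the sequences.
Fos (chr12:85473640-85473939, plus strand): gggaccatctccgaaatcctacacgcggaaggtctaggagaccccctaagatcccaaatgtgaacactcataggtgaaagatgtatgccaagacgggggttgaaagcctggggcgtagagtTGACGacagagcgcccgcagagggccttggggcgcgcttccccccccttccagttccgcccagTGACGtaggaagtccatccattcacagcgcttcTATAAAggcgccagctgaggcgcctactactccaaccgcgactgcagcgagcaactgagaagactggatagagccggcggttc
Jun (chr4:95052173-95052472, minus strand): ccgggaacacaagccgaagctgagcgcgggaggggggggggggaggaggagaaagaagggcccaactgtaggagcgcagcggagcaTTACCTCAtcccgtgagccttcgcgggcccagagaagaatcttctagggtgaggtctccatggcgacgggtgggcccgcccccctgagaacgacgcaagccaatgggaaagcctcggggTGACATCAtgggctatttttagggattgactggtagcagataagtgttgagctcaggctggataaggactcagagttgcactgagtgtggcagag
Junb (chr8:84978699-84978998, minus strand): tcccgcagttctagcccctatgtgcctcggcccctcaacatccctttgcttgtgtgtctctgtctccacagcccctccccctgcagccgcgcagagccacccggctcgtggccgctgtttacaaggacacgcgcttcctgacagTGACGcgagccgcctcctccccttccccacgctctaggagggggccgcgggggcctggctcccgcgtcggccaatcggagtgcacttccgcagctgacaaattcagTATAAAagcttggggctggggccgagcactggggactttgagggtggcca
Egr2 (chr10:67537619-67537918, plus strand): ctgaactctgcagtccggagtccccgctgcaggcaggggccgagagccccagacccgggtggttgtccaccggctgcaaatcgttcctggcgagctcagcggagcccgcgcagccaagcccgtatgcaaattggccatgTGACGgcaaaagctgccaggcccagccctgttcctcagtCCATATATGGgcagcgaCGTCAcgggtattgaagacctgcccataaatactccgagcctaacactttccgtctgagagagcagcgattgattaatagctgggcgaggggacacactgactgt

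Motifs were searched on both strands in the 8 members with a sequence, all but Fosl1 and Egr1, and in 32851 promoter windows of the same length. For Egr2, which has several annotated starts, the window nearest the deposited transcript was used. The Jund window lies at the start of the gene's annotated span. Whether the deposited Jund transcript starts there was not checked. The core of the cAMP response element, TGACG, which CREB and ATF proteins bind, was found in Fos, Fosb, Junb, Atf3 and Egr2, and in 20.8% of all windows. In Fos its matches lay 129 and 66 bases before the start. The full palindrome TGACGTCA, which contains this core, was in none of the 8 members and in 1.79% of all windows. The AP-1 element TGANTCA was likewise in no member and in 7.81% of windows. Jun held both AP-1-like elements searched, TGACATCA 45 bases before its start and TTACCTCA 164 bases before it, which stood in 3.62% and 0.889% of windows. These are the sites through which JUN is known, from the human gene, to act on its own promoter. Their presence in Jun was thus likely before the search, and the shares of windows do not measure how specific the match is. A CArG box, the site of serum response factor, was found 72 bases before the start of Egr2, overlapping no other match. It was in 1.63% of windows. No site further than 250 bases before a start was searched in any member, and Egr1 and Fosl1 were not searched at all. The EGR element GCGGGGGCG was in Fosb and Fosl2 and in 2.91% of windows, and GCGTGGGCG was in no member and in 0.612% of windows. The TATA element TATAAA was in 13.6% of windows and in Fos, 33 bases before the start. Junb also held it, but on bases 1 to 6 from the annotated start rather than before it. Members called higher and members not past the threshold both held the TGACG core, and a match describes these letters alone.

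**Figure D1:**
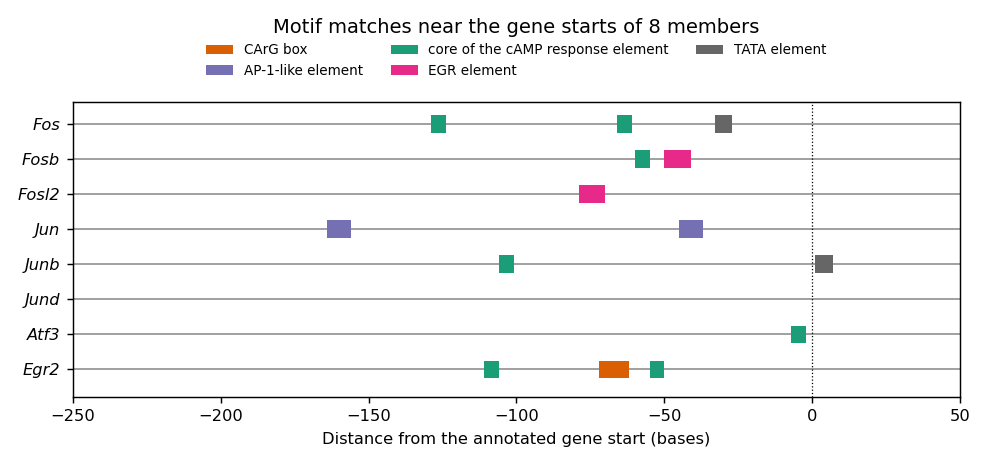
Motif matches in 8 members, with distance from the annotated gene start in bases on the x axis and a bar for each match. Within the windows searched, Fos, Fosb, Junb, Atf3 and Egr2 carry the core of the cAMP response element. Jun carries both AP-1-like elements, Egr2 the CArG box, and Jund has no match in its window.

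The messages of the sort markers did not both follow the labels. Adgre1, which encodes F4/80, was 557 FPKM in CD301b macrophages and still 151 FPKM in F4/80-negative cells, and Mgl2, which encodes CD301b, was lower in CD301b macrophages (49.2 against 103 FPKM in F4/80-negative cells). Of the 50-base words in the Mgl2 transcript, 17.0% also occur in other genes, among them its neighbour Clec10a, so its value carries some uncertainty. All 8 macrophage markers were higher in CD301b macrophages, summing to 7466 FPKM there and 2559 FPKM in F4/80-negative cells. They include Adgre1, whose protein is the one that F4/80-negative cells were sorted to lack. Counts of higher and lower markers use an adjusted p of at most 0.05, explained below, unless an unadjusted p is named. Among all tested genes 11.0% were higher and 6.20% lower at that threshold. Dendritic cell markers were lower in 6 of 8 cases (58.2 FPKM summed in CD301b macrophages, 232 FPKM in F4/80-negative cells). Mast cell markers were lower in 5 of 6 tested cases (19.8 FPKM in CD301b macrophages and 56.3 FPKM in F4/80-negative cells). Neutrophil markers were lower in 3 of 6 tested cases, of 9 listed (2127 FPKM summed in CD301b macrophages, 3848 FPKM in F4/80-negative cells), with Elane at 0 in both. Most of that sum came from S100a8 (938 FPKM in CD301b macrophages, 1725 FPKM in F4/80-negative cells) and S100a9 (1092 FPKM in CD301b macrophages, 2025 FPKM in F4/80-negative cells). Of the 6 tested, 3 had ratios above 1, and the median log2 difference was 0.009. Fibroblast markers summed to 4200.2 FPKM in CD301b macrophages and 6197 FPKM in F4/80-negative cells, with 1 of 6 lower and 5 of 6 lower at an unadjusted Cuffdiff p under 0.05. Keratinocyte markers summed to 138 FPKM in CD301b macrophages and 173 FPKM in F4/80-negative cells, with none of 5 past the threshold and 1 lower at an unadjusted Cuffdiff p under 0.05. T and natural killer cell markers summed to 5.37 FPKM in CD301b macrophages and 6.27 FPKM in F4/80-negative cells, and B cell markers summed to 0.558 FPKM in CD301b macrophages and 0.695 FPKM in F4/80-negative cells. Their part in the differences of the members described next was not tested. In sorted bulk samples, a message carried by fewer cells and a message at a lower level per cell cannot be told apart.

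Fos, Jun and Egr1 were higher in CD301b macrophages than in F4/80-negative cells, and no member was lower. Egr1 differed most, at 1.88-fold, followed by Jun at 1.65-fold and Fos at 1.59-fold. All 3 messages were present in both populations. Fosb and Atf3 had ratios of 1.45 and 1.42 and were not past the threshold. The other 5 members, Fosl1, Fosl2, Junb, Jund and Egr2, had ratios between 1.02 and 1.16. Of the 10 members, 3 (30%) were higher at an adjusted p of at most 0.05, against 11.0% of the 13039 genes with a tested transcript, and 0 were lower, against 6.20% of those genes. Adjusted p means the Cuffdiff p from the authors' deposited table after a Benjamini-Hochberg correction across every tested transcript. At an unadjusted Cuffdiff p under 0.05, 5 members were higher and 0 lower. The share of all tested genes at that looser threshold was not computed. Counts at an unadjusted p, here, for the markers above and for the gene lists, therefore have no background beside them. Among the 2526 tested genes at 25 FPKM or more in both populations, a floor chosen after the values were seen and exceeded by 9 members, 13.5% were higher and 6.57% lower.

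**Figure D2:**
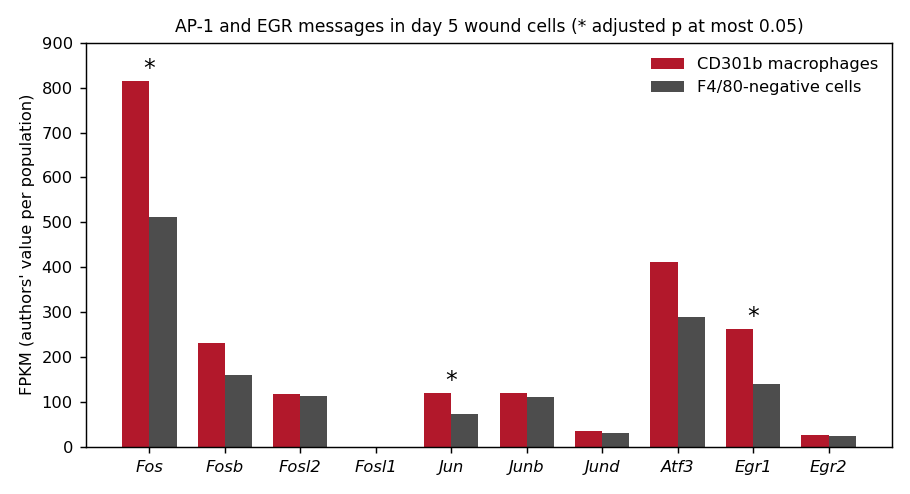
FPKM of each member, 1 value per population, in CD301b macrophages (red) and F4/80-negative cells (grey), with asterisks at an adjusted p of at most 0.05. Fos stands highest in both, at 815 FPKM in CD301b macrophages and 512 FPKM in F4/80-negative cells, and Fosl1, under 1 FPKM, cannot be seen at this scale.

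Among the FOS-type members, Fos (NCBI gene 14281, chromosome 12, 85473890 to 85477274, GRCm38), which encodes c-FOS, was the most abundant. It was 815 FPKM in CD301b macrophages and 512 FPKM in F4/80-negative cells, with an adjusted p of 0.0159 from the Cuffdiff values. By level it ranked 112 of the 13039 tested genes in CD301b macrophages and 167 in F4/80-negative cells. Fosb (gene 14282, chromosome 7, 19302696 to 19310118) makes FOSB and, by splicing, a truncated form known as ΔFOSB, which 1 transcript value cannot tell apart. Fosb was 232 FPKM in CD301b macrophages and 159.9 FPKM in F4/80-negative cells, and its adjusted Cuffdiff p of 0.0549 lay just beyond the threshold. With the adjustment limited to transcripts at 1 FPKM or more in at least 1 population, that p was 0.0492 and Fosb was called higher.

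The messages of the FRA proteins showed no difference past the threshold. Fosl2 (gene 14284, chromosome 5, 32136472 to 32157840), which encodes FRA-2, was 117 FPKM in CD301b macrophages and 114 FPKM in F4/80-negative cells (adjusted p = 0.923 from the authors' deposited table). Fosl1 (gene 14283, chromosome 19, 5447698 to 5455938), which encodes FRA-1, was 0.659 FPKM in CD301b macrophages and 0.626 FPKM in F4/80-negative cells (adjusted p = 0.942 from the authors' deposited table). Fosl1 was thus the lowest member in both. Of the 50-base words in the Fosl1 transcript, 58.9% also occur in the overlapping gene Ccdc85b, so its value is uncertain.

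Fos made up 70.0% of the summed FPKM of the 4 FOS-type members in CD301b macrophages and 65.1% in F4/80-negative cells. Fosl2 made up 10.1% in CD301b macrophages and 14.5% in F4/80-negative cells. The sum was 1165 FPKM in CD301b macrophages against 787 FPKM in F4/80-negative cells, and Fos supplied 80.2% of that difference and Fosb 19.0%. FPKM is scaled by transcript length, so levels of different genes can be set side by side, but no error is available for these shares.

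Among the JUN-type members, Jun (gene 16476, chromosome 4, 95049036 to 95052222), which encodes c-JUN, was 120.4 FPKM in CD301b macrophages and 72.8 FPKM in F4/80-negative cells, with an adjusted Cuffdiff p of 0.00258. Junb (gene 16477, chromosome 8, 84976909 to 84978748), whose protein often restrains c-JUN, was 119 FPKM in CD301b macrophages and 111 FPKM in F4/80-negative cells (adjusted p = 0.785 from the authors' deposited table). Jund (gene 16478, chromosome 8, 70697739 to 70700616), the constitutively expressed family member, was 35.9 FPKM in CD301b macrophages and 30.9 FPKM in F4/80-negative cells (adjusted p = 0.504 from the authors' deposited table). By these values, which carry no error, Jun was 1.01 times Junb in CD301b macrophages and 0.654 times Junb in F4/80-negative cells. Jun held 43.7% of the JUN-type sum in CD301b macrophages and 33.9% in F4/80-negative cells. Junb held 43.2% in CD301b macrophages and 51.8% in F4/80-negative cells. For Jund, 48.3% of the 50-base words also occur in the predicted gene Gm11175, so its level is uncertain, and for Jun 5.83% occur in Junos, the neighbouring noncoding gene. The other members except Fosl1 shared no such word with another gene.

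FOS-type messages outweighed JUN-type messages in both populations. The sum of the FOS-type members was 4.23 times that of the JUN-type members in CD301b macrophages and 3.66 times in F4/80-negative cells. The JUN-type sum was 275 FPKM in CD301b macrophages and 215 FPKM in F4/80-negative cells. These are ratios of messages, and no protein was measured.

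**Figure D3:**
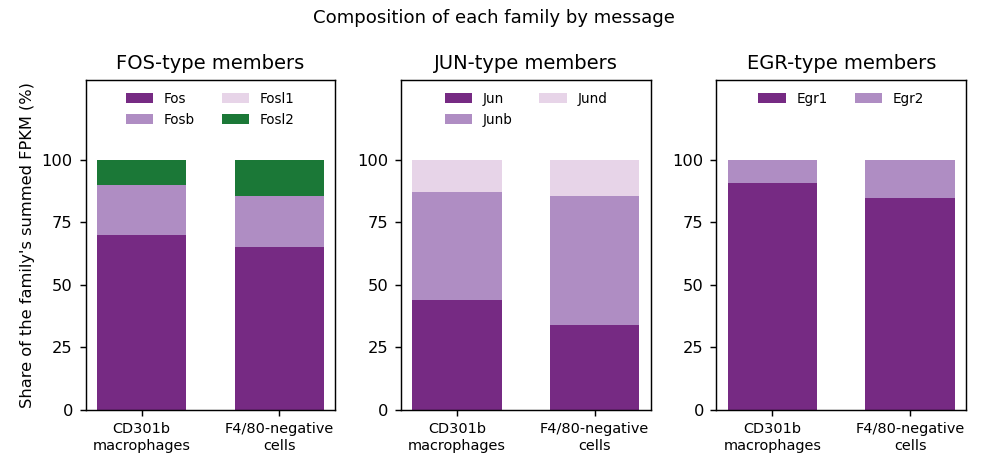
Share of each member, in percent, of the summed FPKM of the FOS-type, JUN-type and EGR-type members, with CD301b macrophages on the left and F4/80-negative cells on the right of each panel. Jun holds 43.7% of the JUN-type sum in CD301b macrophages and 33.9% in F4/80-negative cells, and Egr1 holds most of the EGR-type sum in both.

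Atf3 (gene 11910, chromosome 1, 191170296 to 191183333), a stress-induced factor that restrains inflammatory genes in macrophages, was the second most abundant member. It was 411 FPKM in CD301b macrophages and 290.2 FPKM in F4/80-negative cells. The difference was not past the threshold (adjusted p = 0.0804 from the authors' deposited table).

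Egr1 stood far above Egr2 in both populations. Egr1 (gene 13653, chromosome 18, 34861207 to 34864956) was 263 FPKM in CD301b macrophages and 139.7 FPKM in F4/80-negative cells, with an adjusted Cuffdiff p of 0.000999, the smallest that the authors' deposited p-values allow. Its difference was 0.91 in log2(FPKM + 1), a scale that makes changes of low genes look smaller, and 3.24% of tested genes had a larger one. Egr2 (gene 13654, chromosome 10, 67534469 to 67542188) was 26.5 FPKM in CD301b macrophages and 25.2 FPKM in F4/80-negative cells (adjusted p = 0.839 from the authors' deposited table). Egr1 was 9.92 times Egr2 in CD301b macrophages and 5.54 times in F4/80-negative cells, and it supplied 99.0% of the difference in the EGR-type sum.

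In CD301b macrophages the levels ran Fos, Atf3, Egr1, Fosb, Jun, Junb, Fosl2, Jund, Egr2 and Fosl1, from high to low. In F4/80-negative cells Fosb preceded Egr1, and Fosl2 and Junb preceded Jun. With no values per library, neighbours in these orders cannot be separated from the spread. All 10 ratios were above 1 as deposited, and 7 were above 1 once each population was scaled to the median of its tested genes, where Fosl1, Fosl2 and Egr2 turned. Among all tested genes 55.3% had a ratio above 1. The median log2 difference of the members was 0.36, beside 0.05 for all tested genes and 0.07 for those at 25 FPKM or more. The members fell into 5 with ratios of 1.42 or more and 5 with ratios of 1.16 or less. Among tested genes at 25 FPKM or more, 15.8% had a ratio of at least 1.4. This division was seen in the values and was not tested.

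**Figure D4:**
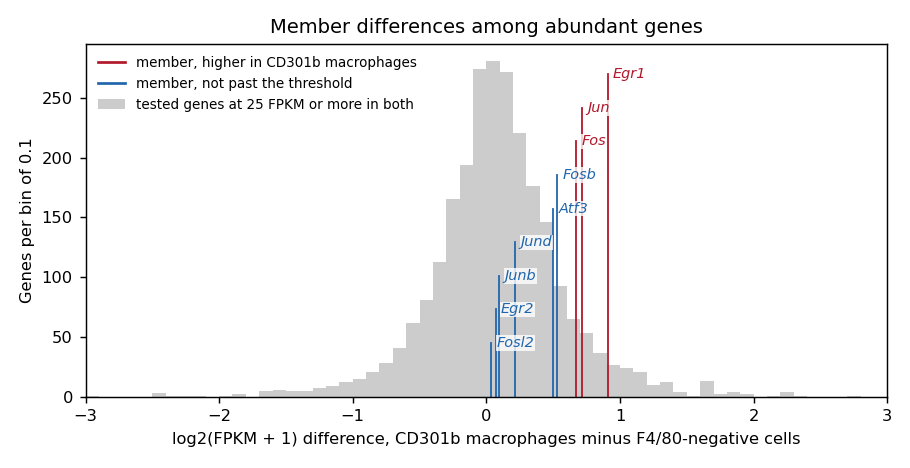
Log2(FPKM + 1) difference between CD301b macrophages and F4/80-negative cells (x axis) for 2526 tested genes at 25 FPKM or more in both (grey, number of genes per bin of 0.1), with lines at the 9 members above that level. Line height has no meaning. Egr1, Jun, Fos, Fosb and Atf3 lie between 0.50 and 0.91, and Jund, Junb, Egr2 and Fosl2 between 0.03 and 0.21.

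The gene closest to Fos in its pair of levels, by Euclidean distance of log2 FPKM over the 2 populations, was Akr1a1, an aldehyde reductase, at 799 FPKM in CD301b macrophages and 497 FPKM in F4/80-negative cells. Cd68, a lysosomal glycoprotein of macrophages, followed at 872 FPKM in CD301b macrophages and 491 FPKM in F4/80-negative cells, and then Dusp1, at 855 FPKM in CD301b macrophages and 562 FPKM in F4/80-negative cells. With 2 values per gene, this likeness is of level and ratio alone.

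Other genes of the pathway were taken from 8 lists of 127 distinct tested genes, of which 14 were higher and 17 lower in CD301b macrophages. Among all tested genes 11.0% were higher and 6.20% lower. The higher count was thus close to that background, and the lower count was above it. Other immediate early genes are induced by the same stimuli. None of 23 was past the threshold in either direction by the authors' Cuffdiff values, and at an unadjusted p under 0.05, 4 were higher and 3 lower. Their median log2 difference was -0.02. Zfp36, whose protein destabilises cytokine messages, was the most abundant, at 1109.8 FPKM in CD301b macrophages and 747 FPKM in F4/80-negative cells (adjusted p = 0.0534 from the authors' deposited table). Mcl1, a survival factor of the BCL2 family, was 587 FPKM in CD301b macrophages and 485 FPKM in F4/80-negative cells. With the adjustment limited to transcripts at 1 FPKM or more, 2 of the 23 were called higher.

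A further list held Egr3, NAB corepressors, NR4A nuclear receptors and Krüppel-like factors. Of its 10 tested genes, 1 was higher and 2 were lower, against 11.0% higher and 6.20% lower among all tested genes. Klf2, a Krüppel-like factor that quiets myeloid activation, was higher (75.9 FPKM in CD301b macrophages, 48.9 FPKM in F4/80-negative cells). Nr4a3 and Nr4a2, orphan nuclear receptors induced as immediate early genes, were lower. Nr4a3 was 29.2 FPKM in CD301b macrophages and 68.2 FPKM in F4/80-negative cells, and Nr4a2 was 24.4 FPKM in CD301b macrophages and 47.9 FPKM in F4/80-negative cells. The other 7, Egr3 among them, were not past the threshold, and the median log2 difference of the list was -0.05. Egr3 was 5.80 FPKM in CD301b macrophages and 6.87 FPKM in F4/80-negative cells.

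Of 21 related leucine zipper factors, 4 rose, 4 fell and 13 missed the threshold, against 11.0% higher and 6.20% lower among all tested genes. Their median log2 difference was 0.05. Maf, a macrophage identity factor, was 98.6 FPKM in CD301b macrophages and 20.7 FPKM in F4/80-negative cells. Jdp2, which pairs with JUN proteins and represses AP-1 sites, was lower, at 30.1 FPKM in CD301b macrophages and 57.4 FPKM in F4/80-negative cells. Ddit3, which encodes CHOP, was also lower (29.1 FPKM in CD301b macrophages, 61.0 FPKM in F4/80-negative cells), as was Atf4, the effector of the integrated stress response (213 FPKM in CD301b macrophages and 326 FPKM in F4/80-negative cells). Crem, the cAMP response element modulator, completed the lower genes, at 26.6 FPKM in CD301b macrophages and 39.3 FPKM in F4/80-negative cells. Further higher genes, outside the rule for named genes and named after their values were seen, were Batf2 (4.40 FPKM in CD301b macrophages, 1.17 FPKM in F4/80-negative cells) and Atf7 (11.4 FPKM in CD301b macrophages and 7.62 FPKM in F4/80-negative cells).

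The factors lie downstream of the MAP kinases. Of 21 MAP kinases and kinases around them, 2 rose, 1 fell and 18 missed the threshold, shares near the 11.0% higher and 6.20% lower of all tested genes, and the median log2 difference was 0.13. Rps6ka1 and Rps6ka3, ribosomal S6 kinases activated by ERK, were higher, and Map2k3, an activator of p38, was lower. Rps6ka1 was 32.4 FPKM in CD301b macrophages and 20.2 FPKM in F4/80-negative cells, Rps6ka3 was 22.6 FPKM in CD301b macrophages and 15.3 FPKM in F4/80-negative cells, and Map2k3 was 76.2 FPKM in CD301b macrophages and 116 FPKM in F4/80-negative cells. Of 6 genes of serum response factor and its cofactors, 1 was higher and 0 lower, against 11.0% higher and 6.20% lower among all tested genes. The higher one was Elk3, a ternary complex factor (18.7 FPKM in CD301b macrophages, 11.7 FPKM in F4/80-negative cells). None was lower at an unadjusted Cuffdiff p under 0.05 either. The median log2 difference of these 6 genes was 0.17.

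Of 12 feedback genes of the MAP kinase pathway, 4 were higher and 2 were lower, against 11.0% higher and 6.20% lower among all tested genes, with a median log2 difference of 0.10. At an unadjusted Cuffdiff p under 0.05, 4 were higher and 5 lower. Dusp1, a nuclear phosphatase of p38 and JNK and itself an immediate early gene, was 855 FPKM in CD301b macrophages and 562 FPKM in F4/80-negative cells. Dusp6, a cytoplasmic phosphatase of ERK, was 59.8 FPKM in CD301b macrophages and 22.8 FPKM in F4/80-negative cells, 2.62-fold higher. Dusp7 and the RAS pathway inhibitor Spred1 were 1.51-fold and 1.68-fold higher. Dusp5, a nuclear phosphatase of ERK, was lower, at 37.2 FPKM in CD301b macrophages and 60.5 FPKM in F4/80-negative cells, and so was Spry1, a receptor kinase inhibitor (2.76 FPKM in CD301b macrophages and 6.87 FPKM in F4/80-negative cells).

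Genes known as AP-1 or EGR targets were more often lower than higher: 7 of 22 were lower and 1 was higher, against 6.20% lower and 11.0% higher among all tested genes, with a median log2 difference of -0.25. Mmp12, a macrophage elastase, was 17.5 FPKM in CD301b macrophages and 67.5 FPKM in F4/80-negative cells. Mmp9, a gelatinase, was 42.1 FPKM in CD301b macrophages and 119 FPKM in F4/80-negative cells, and Mmp3, stromelysin, was 54.7 FPKM in CD301b macrophages and 87.2 FPKM in F4/80-negative cells. Plaur, the urokinase receptor, was 78.1 FPKM in CD301b macrophages and 183 FPKM in F4/80-negative cells, and Il6 was 17.3 FPKM in CD301b macrophages and 48.3 FPKM in F4/80-negative cells. Il1b was also lower (761 FPKM in CD301b macrophages, 1178 FPKM in F4/80-negative cells), and Tnf was the higher one (53.7 FPKM in CD301b macrophages, 36.5 FPKM in F4/80-negative cells). Several of these targets are also expressed by dendritic cells, neutrophils or fibroblasts. Markers of these cells had lower sums in CD301b macrophages, for neutrophils mainly through S100a8 and S100a9, and the part of those cells was not tested.

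Fos, Jun and Egr1 are also known to be induced while tissue is dissociated for sorting, together with heat shock genes. Of 12 heat shock and stress genes, 1 rose, 1 fell and 10 missed the threshold, against 11.0% higher and 6.20% lower among all tested genes. Their median log2 difference was -0.30. Hspa1a, the inducible HSP70, was 117 FPKM in CD301b macrophages and 78.9 FPKM in F4/80-negative cells, while its near-identical copy Hspa1b was 85.3 FPKM in CD301b macrophages and 81.0 FPKM in F4/80-negative cells and not past the threshold. Of the 50-base words of Hspa1a, 66.3% also occur in other genes, Hspa1b among them, so the split between the copies is uncertain. Hspb1, a small heat shock protein, was lower, at 13.3 FPKM in CD301b macrophages and 26.2 FPKM in F4/80-negative cells. The part of cell handling in the Fos, Jun and Egr1 levels was not tested.

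**Figure D5:**
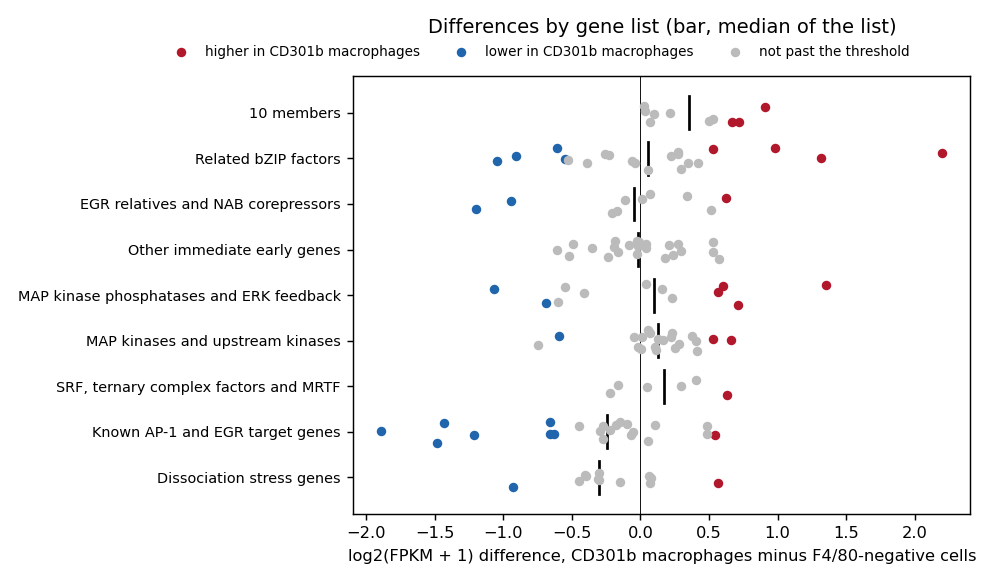
Log2(FPKM + 1) difference between CD301b macrophages and F4/80-negative cells (x axis) for each tested gene (points) of the 10 members and 8 related lists, coloured by call, with a black bar at the list's median; vertical scatter within a list has no meaning. The members' median is 0.36, that of other immediate early genes -0.02, and that of AP-1 and EGR targets -0.25.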

How the data were processed

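Illumina TruSeq mRNA libraries, per the labels' protocols, were sequenced from 4 samples, 2 per population. TopHat2 2.0.2 and Cuffdiff 2.0.2 are named in the submitters' processing notes, with mm9 as the build. Whether strand was used in counting is not stated. The authors deposited 1 table, which per the file headers holds 1 FPKM per transcript and population and an unadjusted p-value. It has no values per library, and FPKM times transcript length showed no whole-read steps (12286 distinct values in 12595 single-transcript genes of CD301b macrophages), so the depth is unknown and no interval is given. Of the accessions, 97.1% were found in RefSeq for GRCm38.p6, and 99.2% of these lay on that gene, so positions are RefSeq positions on GRCm38, counted from 1.

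FPKM was summed by symbol. The deposited p-values of 16921 tested transcripts were adjusted by Benjamini-Hochberg, which returned all 2408 deposited calls at 0.05. A gene was called when at least 1 transcript passed, none passed the other way and the sum pointed in the same direction. A gene's adjusted p is the smallest among its transcripts. Fold changes are ratios of summed FPKM, and log2 differences used a pseudocount of 1 FPKM. The calling code was run on a simulated table whose p-values were set to keep changed and unchanged genes apart. This checked the code alone and not the accuracy of the calls. Members and lists were chosen with earlier results of these data known. Named genes were the members, up to 6 called genes per list at 5 FPKM or more by size of log2 difference (otherwise the 2 most abundant), and the 3 genes nearest to the most abundant member. Some genes that this rule names are not reported here. Alternatives changed the threshold, the transcripts adjusted over, the transcript used, the pseudocount, the scaling and a filter at 1 FPKM. Python 3.11.15, pandas 2.3.3, numpy 2.4.6, scipy 1.17.1 and matplotlib 3.10.9 were used.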

Additional observations from a re-analysis of the deposited data

How the results depend on the processing

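At an adjusted p of 0.01, 2 members (Jun and Egr1) were higher and Fos, at 0.0159, was not past the threshold, while the calls over the distinct genes of all lists were 5 higher and 11 lower, against 14 and 17 at 0.05. With the adjustment over transcripts at 1 FPKM or more, 4 members were higher. Using the most abundant tested transcript, or genes at 1 FPKM or more in both populations, gave 3 members higher and 0 lower. The members' median log2 difference of 0.36 was 0.27 with each population scaled to the median of its tested genes, which shifted all tested genes by a median of -0.08, and 0.50 without Fosl1, the member under 1 FPKM. Under that scaling Fosl1, Fosl2 and Egr2 turned, at -0.0037, -0.049 and -0.012 on the log2 scale, and the other 27 of 30 recomputed member differences kept their direction. No paired analysis was possible because the table holds 1 value per population, and for the same reason leaving out a library was not run. Without read counts, the precision behind each FPKM is unknown, and this limits what can be said of Fosl1.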
